A study of Homo sapiens with 30 samples.

Results

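The HOX cluster genes encode homeodomain transcription factors that give cells their position along the body axis. They were taken here as every gene symbol in the deposited tables made of HOX, a cluster letter from A to D and a number, which gave 39 of 24462 symbols. Cluster A on chromosome 7 held 11 of them, cluster B on chromosome 17 held 10, cluster C on chromosome 12 held 9 and cluster D on chromosome 2 held 9. The rule reads symbols alone.

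RNA was measured by QuantSeq, a method that reads polyadenylated transcripts at their 3′ ends, in 30 libraries of 3 colorectal cancer cell lines, Caco2, HCT116 and SW480. The study examined what lowering SETDB1, a histone H3 lysine 9 methyltransferase that silences chromatin, does to these lines. All cells of the Caco2 groups had been given a retroviral hairpin and selected with puromycin. Caco2 contributed 4 groups of 3 libraries. A scrambled hairpin with vehicle was one, and a scrambled hairpin with differentiation medium was another; that medium held troglitazone (10 uM), an activator of the nuclear receptor PPARG, and 1α,25-dihydroxyvitamin D3 (25 nM), which activates the vitamin D receptor, from day 3 after transduction. The other Caco2 groups carried a SETDB1 hairpin and were sorted as KRT20-negative or KRT20-positive, KRT20 being a keratin of differentiated intestinal cells. HCT116 and SW480 each contributed 3 groups of 3 libraries, which were unsorted cells and cells with a SETDB1 hairpin that had been separated into a KRT-negative and a KRT-positive fraction. The labels do not give the medium of the hairpin-carrying or unsorted cells, nor which hairpin the unsorted cells carried, so comparisons with unsorted cells differ in more than SETDB1. Since the labels leave it unsaid if replicates came from separate cultures, p-values here reflect the spread among these libraries alone, which may be technical.

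Each HOX cluster is read in one direction, with low-numbered genes at its 3′ end and high-numbered genes at its 5′ end, and in the embryo the genes are used in that order from front to back. Adult intestine keeps part of this code, with posterior genes used in the colon. Polycomb proteins keep unused HOX genes silent, retinoic acid opens the clusters from their low-numbered end, and CDX2 drives the middle genes in gut cells. The clusters also hold microRNAs, small RNAs that pair with messenger RNAs through a seed at bases 2 to 8.

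The microRNA sequences are shown because the miR-196 genes lie inside clusters A, B and C and can pair, by their letters, with HOXB8, the HOX gene with the largest change in Caco2. The capitals mark the seed. The sequences are from RefSeq on GRCh38.p14, and the microRNAs themselves were not measured.
hsa-miR-196a-5p: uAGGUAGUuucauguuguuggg
hsa-miR-196b-5p: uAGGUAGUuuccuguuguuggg
hsa-miR-10a-5p: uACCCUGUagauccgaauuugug
The miR-196 forms shared a seed, and miR-10a had another. MIR196A2 lies at chr12:53991762-53991783 on the plus strand, and MIR196A1 at chr17:48632532-48632553 on the minus strand. MIR196B is at chr7:27169528-27169549 and MIR10A at chr17:48579904-48579926, both on the minus strand.

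Sites for miR-196a in the transcripts of 3 HOX genes, from GENCODE 29 on GRCh38, are shown with the bases that pair in capitals. These genes were chosen because they hold such a site and were each called in 4 or more comparisons within a line.
HOXB8: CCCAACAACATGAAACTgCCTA
HOXA7: CCtActccCcTaAAACTACCTA
HOXC8 first site: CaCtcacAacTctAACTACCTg
HOXC8 second site: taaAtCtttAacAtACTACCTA
The HOXB8 site, at chr17:48612770-48612791 on the minus strand, lies in the 3′ untranslated part of exon 2 and pairs at 21 of 22 bases. It was the only site with 19 or more paired bases among 19669 coding transcripts, 1 per gene. Its unpaired base lies within the seed match, so HOXB8 lacks the whole match that the HOXA7 and HOXC8 sites hold. A pairing of 15 or more bases was found in 1978 of the 19669 transcripts. The HOXA7 site shown, at chr7:27154430-27154451 on the minus strand, paired at 15 of 22 bases and is the best paired of 4 with the whole seed match in that transcript; the others paired at 14, 12 and 10 bases. The sites of HOXC8, at chr12:54011495-54011516 and chr12:54012231-54012252 on the plus strand, paired at 12 of 22 bases each. The match to the seed, ACTACCT on the transcript's own strand, stood in 10 of 39 HOX transcripts (25.641%) and in 17.088% of all coding transcripts. The match to the miR-10a seed, ACAGGGT, stood in 5 of 39 HOX transcripts (12.821%), HOXB3 and HOXB5 among them, and in 19.035% of all. A match is a description of the letters and not a measured site.

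Total counts ran from 5349737 to 10221854 per library, so that 3 counts stood for 0.26 to 0.621 CPM (counts scaled to library size). Levels below are CPM scaled by trimmed means over all 30 libraries, and since a transcript gives about 1 tag whatever its length they were not divided by length. Replicates were closer in Caco2, where their chi-square per degree of freedom was 2.21 to 16.3, than in HCT116 (37.6 to 89.5) and SW480 (41.2 to 138). SETDB1 checked the labels only in part. In Caco2 it averaged 32.0 CPM with vehicle, 35.6 with medium, 22.2 in KRT20-negative cells and 23.6 in KRT20-positive cells. The SW480 library labelled KRT-negative replicate 1 held 36.9 CPM of SETDB1, above all unsorted SW480 libraries. The HCT116 libraries labelled KRT-positive replicates 2 and 3 held 18.5 and 29.1 CPM, above the unsorted library with 16.4. KRT20 averaged 33.8 CPM in Caco2 KRT20-positive and 1.35 CPM in KRT20-negative cells, and it was 44.6 to 74.9 CPM in the SW480 KRT-positive libraries but 0, 0 and 5.44 CPM in those of HCT116. Markers of fibroblasts summed to 950 CPM in Caco2 KRT20-negative replicate 3 and to 152 to 191 CPM in the other Caco2 libraries. HCT116 and SW480 libraries also fell into 2 classes by how their levels ran with the GC content of transcripts. The class leaning to AT-rich transcripts held replicate 2 of each SW480 group, and in HCT116 it held all KRT-positive libraries, KRT-negative replicate 1 and unsorted replicates 1 and 2.

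For 2 HOX genes the counts ran together with those of an antisense partner in Caco2 and not in the other lines. In all 12 Caco2 libraries HOXA7 and HOXA-AS3, an RNA transcribed from the opposite strand across the end of HOXA7, had counts within 0.442% to 2.81% of each other. HOXA4 and HOXA-AS2 were within 0% to 12% of each other in those libraries. The other 6 pairs that overlap at the end of the HOX gene were farther apart in Caco2, among them HOXA10 and HOXA10-AS by 46.3% to 64.6%, HOXB3 and HOXB-AS1 by 62.7% to 92.2%, and HOXB6 and HOXB-AS3 by 12.5% to 65.2%. In SW480 HOXA-AS2 had no count in 9 of 9 libraries while HOXA4 had 98 to 579, and HOXA-AS3 had no count in 6 of 9 while HOXA7 had 753 to 2296. HCT116 was alike, with no count for HOXA-AS2 in 8 of 9 libraries and for HOXA-AS3 in 6 of 9. The strand setting of the authors' counting is not given in the sources used here, so in Caco2 the tags of HOXA7 and HOXA4 cannot be told apart from those of their antisense partners. HOXA9 and the read-through symbol HOXA10-HOXA9 had equal counts in 26 of 30 libraries, so HOXA9 may include read-through transcripts.

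Genes of clusters A, B and C were shared by all 3 lines, and no cluster D gene was detected in every group. With detection set at a group mean of 1 CPM, 18 HOX genes were detected in all 10 groups, which were HOXA3, HOXA4, HOXA5, HOXA7, HOXA9, HOXA10, HOXB3, HOXB4, HOXB6 to HOXB9, HOXB13, HOXC4, HOXC6 and HOXC8 to HOXC10. HOXB1, HOXD1 and HOXD12 were detected in none, and HOXB1 and HOXD12 had no count in any of the 30 libraries, which allows up to 0.26 to 0.621 CPM by library from counting error alone. Per group, 24 to 32 of 39 genes were detected, with 26 in Caco2 vehicle, 25 in HCT116 unsorted and 30 in SW480 unsorted cells. Of the 9 cluster D genes, 1 was detected in Caco2 vehicle cells, 2 in HCT116 unsorted and 4 in SW480 unsorted cells.

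**Figure D1:**
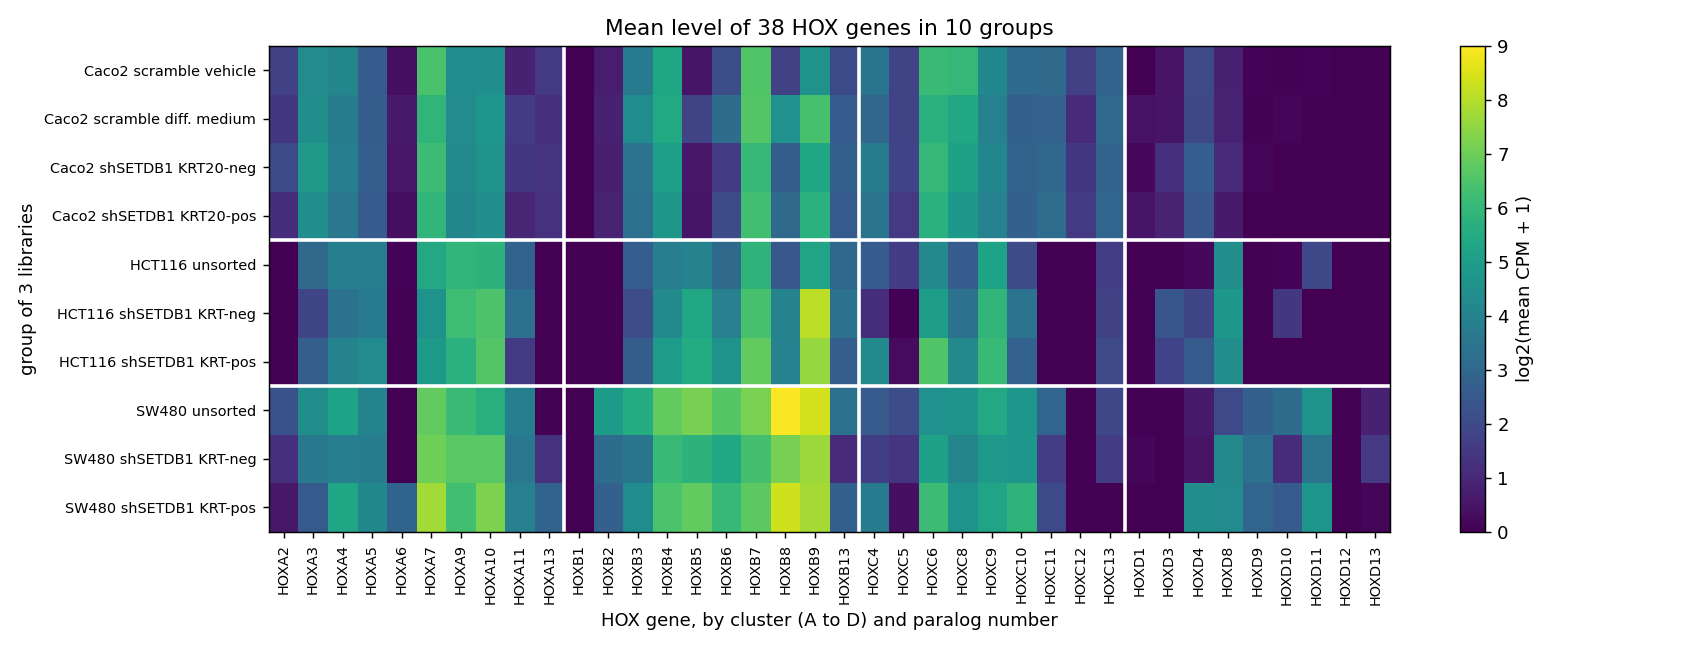
Level of 38 of the 39 HOX genes (columns, ordered by cluster and number) in the 10 groups (rows), as log2 of the mean CPM of 3 libraries plus 1. HOXA7, HOXB7 and HOXC6 are filled in all groups, HOXB5 and HOXB8 are brightest in SW480, and in Caco2 HOXD4 is the brightest cluster D gene.

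Summed over its genes, cluster B had the widest range of CPM. Its sum was 178 ± 9.22 CPM (SD, n = 3) in Caco2 vehicle cells and 149 ± 14.7 in HCT116 unsorted cells. In SW480 unsorted cells it was 1408 ± 153 CPM. Cluster A spanned a narrower range, 144 ± 2.48 CPM in Caco2 KRT20-positive cells to 533 CPM in SW480 KRT-positive cells, and cluster C ran from 71.6 ± 4.01 CPM in HCT116 unsorted to 206 ± 29.4 CPM in HCT116 KRT-positive cells. Cluster D stayed at 4.32 ± 0.99 to 8.15 ± 1.10 CPM in the Caco2 groups.

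Differentiation medium raised cluster B in Caco2. Of 29 HOX genes tested, 9 were called at 5% false discovery rate, 6 higher and 3 lower, which is 31% of those tested against 20.9% of all genes. Cluster B held most of them, with 5 of 8 tested genes higher and none lower, where 10.4% of all genes were higher. Its median log2 difference was 0.97 and that of all genes tested was -0.0049. In bulk RNA, more cells using a gene and more RNA per cell cannot be told apart here or below.

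HOXB8, a middle gene of the cluster, had 3.08, 2.52 and 1.75 CPM in the vehicle libraries and 22.7, 18.6 and 26.3 CPM with medium. All medium libraries lay above all vehicle libraries, with means 9.21-fold apart (log2 difference 3.18, SE 0.22, adjusted p = 2.13e-10). Its neighbour HOXB9 had 23.1, 25.7 and 22.7 CPM with vehicle and 81.3, 88.2 and 78.8 CPM with medium, again without overlap (3.48-fold, log2 difference 1.80, SE 0.12, adjusted p = 1.3e-10). HOXB5 was nearly silent with vehicle, at 0, 0.982 and 0.318 CPM, and had 3.33, 2.21 and 2.28 CPM with medium (log2 difference 2.58, SE 0.63, adjusted p = 0.00484). That difference was 1.95 without vehicle replicate 1 and 4.05 without vehicle replicate 2.

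HOXB6 went from 2.95, 3.51 and 4.13 CPM to 9.76, 4.73 and 9.81 CPM (log2 difference 1.22, adjusted p = 0.013), and HOXB3 from 10.8, 9.82 and 16.2 CPM to 17.5, 21.5 and 20.6 CPM (log2 difference 0.70, adjusted p = 0.0075). Both pairs of groups were free of overlap, but the HOXB6 call was lost under 3 alternatives and that of HOXB3 under 2. Between these genes lay members that did not pass the test. HOXB4 averaged 38.2 CPM with vehicle and 43.3 CPM with medium (adjusted p = 0.233), and HOXB7, at 93.2 and 95.8 CPM, is the most abundant cluster B gene of Caco2 by mean CPM in both groups. HOXB13, the most posterior gene of the cluster and far from its neighbours, had a log2 difference of 0.72 (adjusted p = 0.0716).

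**Figure D2:**
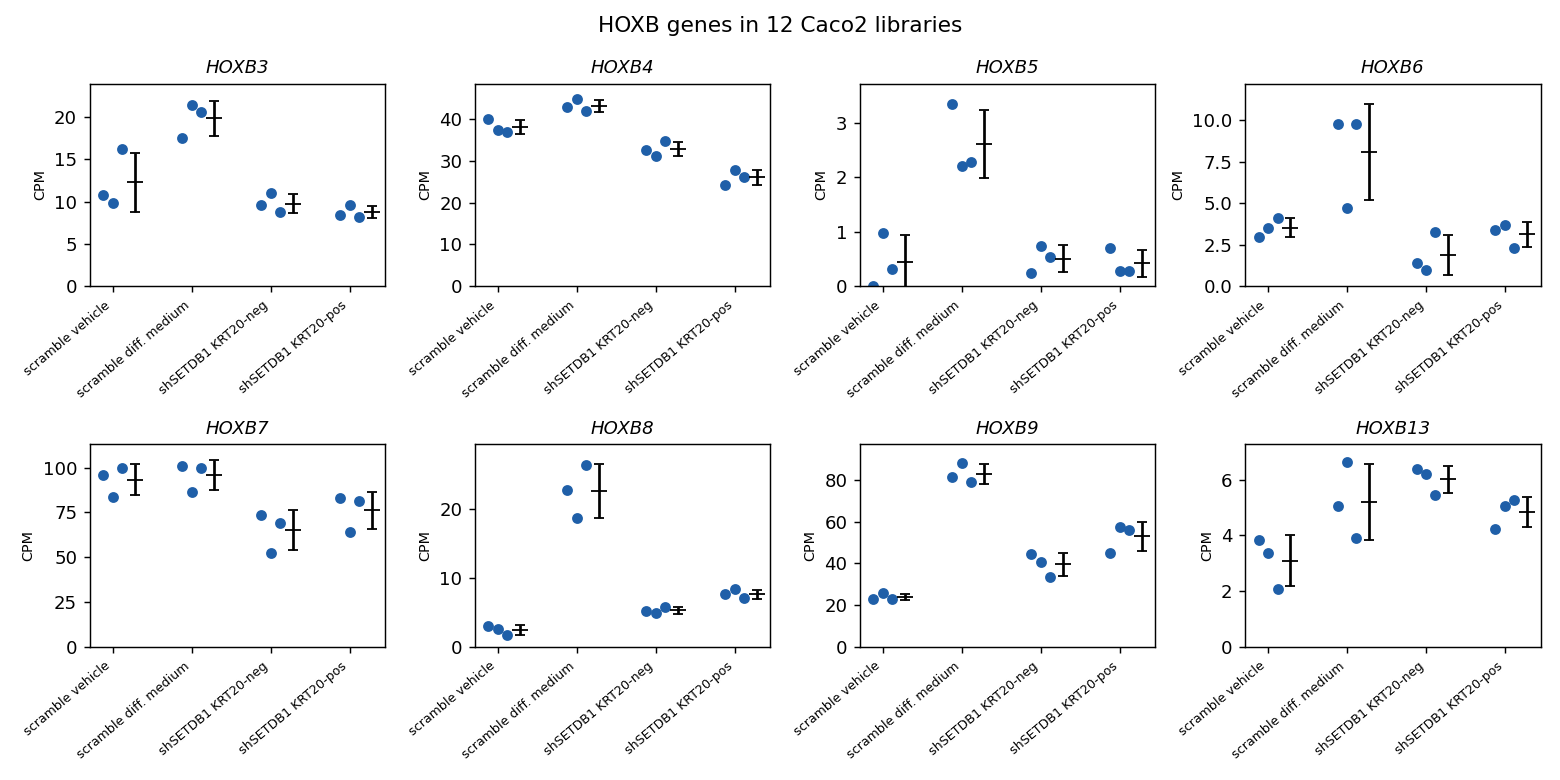
Levels in CPM of HOXB3 to HOXB9 and HOXB13 in the 12 Caco2 libraries by group; points are libraries and the black bar is the mean ± SD of 3. HOXB8 and HOXB9 are highest with medium, intermediate in both SETDB1-hairpin groups and lowest with vehicle, while HOXB7 is lower in KRT20-negative hairpin cells than with vehicle.

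In clusters A and C the medium lowered some genes. HOXC8, a thoracic-level gene of cluster C, fell from 61.9, 59.6 and 64.5 CPM to 46.4, 35.2 and 40.2 CPM, without overlap (log2 difference -0.60, SE 0.11, adjusted p = 0.000245). HOXA7 fell from 81.8, 82.2 and 91.0 CPM to 55.6, 57.6 and 60.8 CPM (log2 difference -0.55, adjusted p = 0.000101), as did HOXA-AS3, whose counts nearly equal it. HOXC6, at 69.7 CPM on average with vehicle and 53.4 CPM with medium, had a log2 difference of -0.38 (adjusted p = 0.00815), a call lost without vehicle replicate 2. HOXA11, a posterior gene, rose from 0.897, 0.421 and 0.953 CPM to 1.85, 2.37 and 1.75 CPM (log2 difference 1.37, adjusted p = 0.0479), a call lost under 9 of 12 alternatives. Neither cluster D gene that was tested passed the test.

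HOXB8 and HOXB9 were also higher than with vehicle in both sorted SETDB1-hairpin groups of Caco2, by less than with medium in these fits. Those groups differ from vehicle in hairpin and in the KRT20 sort, and their medium is not given, so these cannot be told apart. In KRT20-negative cells 8 of 29 tested HOX genes were called against vehicle, 5 higher and 3 lower, where 36.2% of all genes were called, and in KRT20-positive cells 8 of 29 were called, 2 higher and 6 lower, where 37.7% of all genes were called. In both groups 27.6% of the tested HOX genes were called, which is below the share of all genes. These comparisons and that of the medium share the vehicle libraries, so their values are set side by side only.

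HOXB8 held 5.20, 4.87 and 5.78 CPM in KRT20-negative and 7.60, 8.31 and 7.01 CPM in KRT20-positive hairpin cells. Every one of these libraries lay above the vehicle libraries and below the medium libraries. The log2 difference from vehicle was 1.09 in KRT20-negative cells (SE 0.25, adjusted p = 0.00117) and 1.63 in KRT20-positive cells (SE 0.24, adjusted p = 7.92e-06). HOXB9 followed the same order, with 44.3, 40.8 and 33.5 CPM in KRT20-negative and 45.0, 57.5 and 56.1 CPM in KRT20-positive cells. Its log2 differences from vehicle were 0.73 (SE 0.12, adjusted p = 5.21e-05) and 1.17 (SE 0.12, adjusted p = 5.09e-08).

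Of the rest of cluster B only HOXB13 was called higher, in KRT20-negative cells. HOXB7 fell in KRT20-negative cells, to 73.4, 52.3 and 69.3 CPM from 96.1, 83.4 and 100 CPM with vehicle (log2 difference -0.51, adjusted p = 0.00197). HOXB4 fell in KRT20-positive cells, to 24.2, 27.8 and 26.3 CPM from 40.1, 37.4 and 37.0 CPM (log2 difference -0.53, adjusted p = 0.000364). In both cases no hairpin library reached the lowest vehicle library. The end of HOXB4 overlaps annotated HOXB3 transcripts on the same strand, so tags there may be split between them. HOXB13, the gene of the distal colon and prostate, went there to 6.38, 6.21 and 5.46 CPM from 3.85, 3.37 and 2.06 CPM (log2 difference 0.94, adjusted p = 0.00893), a call lost without vehicle replicate 3.

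HOXC8 gave the largest fall among the HOX genes called in both hairpin groups. It had 37.0, 33.5 and 32.1 CPM in KRT20-negative cells and 27.0, 24.9 and 28.4 CPM in KRT20-positive cells, below all vehicle libraries. Log2 differences from vehicle were -0.85 (SE 0.11, adjusted p = 1.12e-06) and -1.19 (SE 0.11, adjusted p = 8.69e-09). HOXC6, its neighbour in the cluster, averaged 62.7 CPM in KRT20-negative and 52.4 CPM in KRT20-positive cells, and it passed the test only in KRT20-positive cells (log2 difference -0.39, adjusted p = 0.00322).

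The cluster A genes named here moved by less than HOXC8. HOXA7 averaged 71.5 CPM in KRT20-negative and 60.3 CPM in KRT20-positive cells against 85.0 with vehicle (log2 differences -0.24 and -0.47, adjusted p = 0.034 and 0.000189). The first of these calls was lost under 3 alternatives. HOXA4 fell in KRT20-positive cells (log2 difference -0.54, adjusted p = 0.0227), a call lost without KRT20-positive replicate 1 or 2 or vehicle replicate 2. HOXA3 rose in KRT20-negative cells to 32.6, 29.3 and 20.6 CPM from 18.7, 20.1 and 19.5 CPM (log2 difference 0.50, adjusted p = 0.0106), a call lost without KRT20-negative replicate 1. HOXD4, at 5.44, 5.36 and 5.78 CPM there and 2.56, 4.07 and 2.22 CPM with vehicle, was the only cluster D gene called in a Caco2 comparison (log2 difference 0.90, adjusted p = 0.0188), and that call was lost without vehicle replicate 1 or 3. Against medium, HOXD4 was also called higher in KRT20-negative cells (log2 difference 0.96, adjusted p = 0.0123), a call kept under all 12 alternatives.

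**Figure D3:**
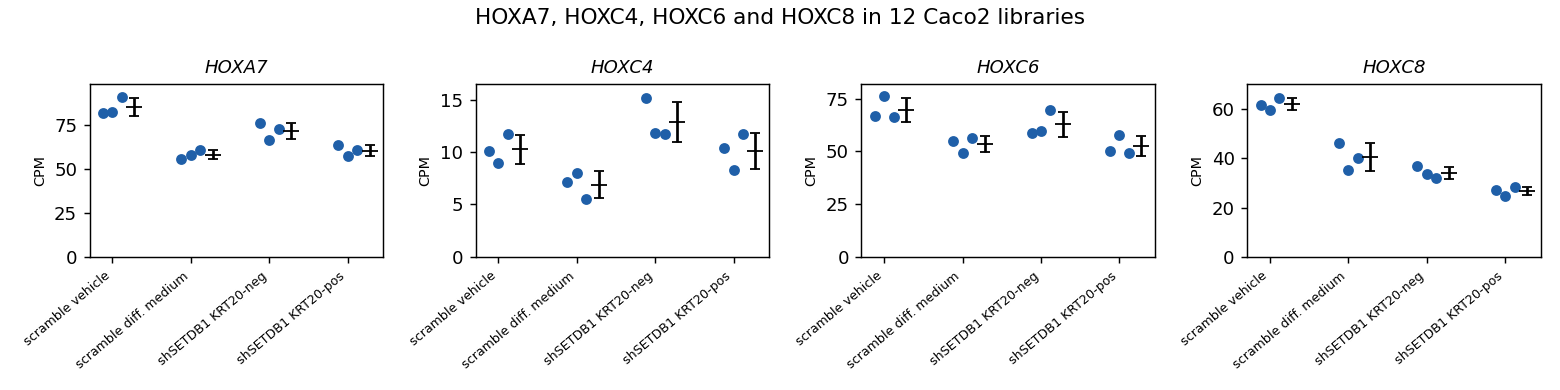
Levels in CPM of HOXA7, HOXC4, HOXC6 and HOXC8 in the 12 Caco2 libraries by group; points are libraries and the black bar is the mean ± SD of 3. HOXC8 and HOXA7 are highest with vehicle, and HOXC4 is lowest with medium.

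**Figure D4:**
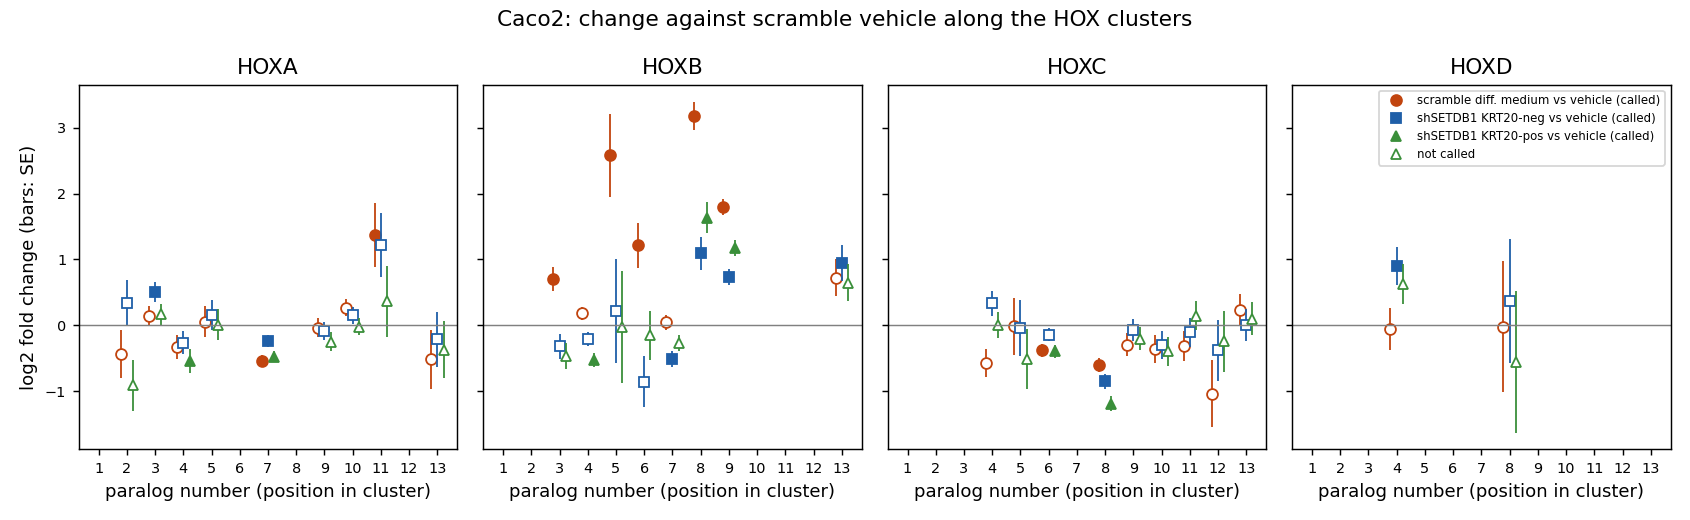
Log2 difference from Caco2 vehicle (± SE) of tested HOX genes by their number in the cluster, in 1 panel per cluster, for differentiation medium and both SETDB1-hairpin groups; filled points were called at 5% false discovery rate. With medium, cluster B has its highest value at HOXB8, with 3.18, and HOXB4 and HOXB7 near 0, while both hairpin groups show positive calls at HOXB8 and HOXB9 and negative calls at HOXC8.

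Compared with the medium group rather than with vehicle, both hairpin groups had less of cluster B. In KRT20-negative cells 10 of 29 tested HOX genes were called, 3 higher and 7 lower, where 38% of all genes were called. All 7 of the lower genes, HOXB3 to HOXB9, lay in cluster B, where 8 were tested (median log2 difference -1.04) and where 18.4% of all genes were lower. KRT20-positive cells gave 9 called of 29 against 34.5% of all genes, with the same 7 cluster B genes lower (median log2 difference -0.94), where 16.6% of all genes were lower. The HOXB7 call among these was lost under 4 of 12 alternatives. The medium libraries are common to both comparisons and to the one with vehicle, so these counts are not separate evidence.

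HOXB8 showed a log2 difference of -2.09 in KRT20-negative (SE 0.19, adjusted p = 8.28e-09) and -1.55 in KRT20-positive cells (adjusted p = 6.86e-07). HOXB5, at 0.236 to 0.730 CPM in the hairpin groups, had log2 differences of -2.36 and -2.61 (adjusted p = 0.0028 and 0.00245). HOXC4, the first gene of cluster C, was higher than with medium in KRT20-negative cells, at 15.1, 11.8 and 11.8 CPM against 7.16, 8.05 and 5.51 CPM (log2 difference 0.91, adjusted p = 0.000925). Its log2 difference in KRT20-positive cells was 0.58 (adjusted p = 0.0334), a call lost without replicate 1 or 3 of either group (adjusted p up to 0.162). HOXC8 was lower than with medium in KRT20-positive cells (log2 difference -0.59, adjusted p = 0.000283).

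Between KRT20-positive and KRT20-negative hairpin cells HOXB9 was the only HOX gene called of 29 tested, where 4.08% of all genes were called. A further 8 HOX genes had an unadjusted p under 0.05, and the median log2 difference was -0.23 over the 29 and -0.00053 over all genes. The 4.08% counts adjusted calls, and the share of all genes with an unadjusted p under 0.05 is not given here or below. HOXB9 was 1.34-fold higher in KRT20-positive cells (log2 difference 0.44, SE 0.12, adjusted p = 0.029). Its lowest KRT20-positive library, at 45.0 CPM, barely exceeded its highest KRT20-negative library, at 44.3 CPM. The call was lost under 4 of 12 alternatives, among them the one without the KRT20-negative replicate rich in fibroblast markers (log2 difference 0.33, adjusted p = 0.089). In that replicate 14 HOX genes were above both other replicates and 8 below them, of 34 with a count, and the part of other cells in these values was not tested.

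In HCT116, HOXB9 rose in both sorted hairpin groups. Unsorted libraries had 22.2, 36.0 and 54.7 CPM. The KRT-negative libraries had 158, 314 and 357 CPM and the KRT-positive libraries 226, 190 and 155 CPM, all above every unsorted library. Means differed 7.35-fold in KRT-negative (log2 difference 2.91, SE 0.36, adjusted p = 0.00017) and 5.07-fold in KRT-positive cells (log2 difference 2.39, SE 0.35, adjusted p = 0.000488). It was the only HOX gene called of 24 in KRT-negative cells, where 5.26% of all genes were called. These comparisons share the unsorted libraries.

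HOXC6 was the other of 2 HOX genes called of 24 in KRT-positive HCT116 cells, where 9.28% of all genes were called. It had 9.95, 32.2 and 11.8 CPM in unsorted cells, 30.3, 36.8 and 28.7 CPM in KRT-negative cells and 93.0, 102 and 83.5 CPM in KRT-positive cells. The KRT-positive libraries stood above all others, 5.16-fold over the unsorted mean (log2 difference 2.41, SE 0.45, adjusted p = 0.00264). Without the library labelled KRT-positive replicate 3, whose SETDB1 exceeded that of an unsorted library, the log2 differences were 2.52 for HOXB9 (adjusted p = 0.00145) and 2.48 for HOXC6 (adjusted p = 0.00883). Without replicate 2 they were 2.39 and 2.33 (adjusted p = 0.00234 and 0.0148). With the GC class as a term in the fit they were 2.77 (adjusted p = 3.64e-06) and 2.31 (adjusted p = 0.00316), and that of HOXB9 in KRT-negative cells was 2.57 (adjusted p = 8.48e-06).

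Other cluster B genes were also higher in the HCT116 hairpin groups by their means without passing the test. HOXB5 averaged 15.1 CPM in unsorted, 39.7 in KRT-negative and 45.0 CPM in KRT-positive cells, and HOXB8 averaged 4.46, 15.1 and 14.9 CPM. HOXB8 was uneven in KRT-positive cells, with 25.2, 1.13 and 18.5 CPM. KRT-positive against KRT-negative cells gave no HOX call in edgeR's quasi-likelihood test of 24, where 0.55% of all genes were called. Of the 24, 2 had an unadjusted p under 0.05, and DESeq2 called 2, HOXC4 and HOXC6. The 0.55% belongs to the edgeR calls alone, and the shares of all genes for these other counts are not given here. HOXC4 had 1.01, 0 and 2.79 CPM in KRT-negative and 31.7, 9.89 and 14.2 CPM in KRT-positive cells, which did not overlap (adjusted p = 0.295).

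SW480 had the highest cluster B levels and no HOXB9 call. HOXB9 held 454, 231 and 319 CPM in unsorted cells, 287, 155 and 153 CPM in KRT-negative and 272, 130 and 250 CPM in KRT-positive cells, and the groups overlapped. In KRT-negative cells 1 HOX gene of 32 was called, where 2.12% of all genes were called. That gene was HOXB8, which fell to 223, 79.1 and 121 CPM from 619, 384 and 470 CPM (log2 difference -1.79, SE 0.41, adjusted p = 0.0358). Its groups did not overlap, but the call was lost under 6 of 13 alternatives: with no filter on low counts, without KRT-negative replicate 2 or 3, and without any 1 of the 3 unsorted libraries (log2 differences from -1.51 to -1.94). Without the library labelled KRT-negative replicate 1, with its high SETDB1, the log2 difference was -2.27 (adjusted p = 0.0193), and with the GC class as a term it was -1.87 (adjusted p = 0.00121). The median log2 difference of the 9 cluster B genes tested was -1.32 and that of all genes 0.01. Of all 32 HOX genes tested, 11 were lower in each KRT-negative library than in any unsorted one, as were 12% of all genes. An unadjusted p under 0.05 was found for 9, and the share of all genes under that threshold is not given here.

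In KRT-positive SW480 cells 2 cluster A genes of 32 tested HOX genes were called, both higher, where 3.47% of all genes were called. HOXA10, a posterior gene, had 56.6, 42.4 and 48.6 CPM in unsorted and 117, 212 and 111 CPM in KRT-positive cells (2.98-fold, log2 difference 1.63, SE 0.34, adjusted p = 0.0172). HOXA7 had 118, 89.5 and 133 CPM in unsorted and 232, 213 and 199 CPM in KRT-positive cells (1.89-fold, log2 difference 0.96, SE 0.24, adjusted p = 0.0465). Neither pair of groups overlapped, and these calls were lost under 4 and 8 of 13 alternatives. KRT-positive against KRT-negative cells gave no call in edgeR's quasi-likelihood test of 32, where 0.445% of all genes were called. There were 6 unadjusted p under 0.05, and 2 calls in DESeq2, HOXB8 and HOXD4. The 0.445% belongs to the edgeR calls alone, and the shares of all genes for these other counts are not given here.

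**Figure D5:**
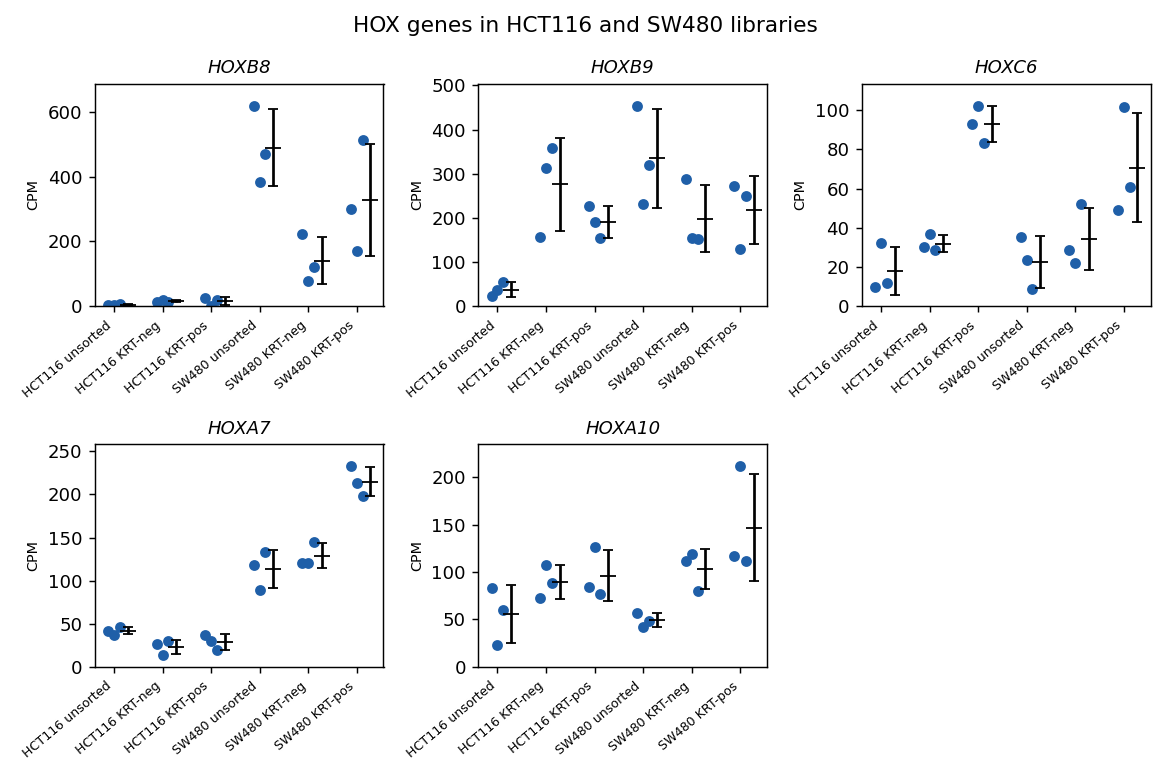
Levels in CPM of HOXB8, HOXB9, HOXC6, HOXA7 and HOXA10 in the 9 HCT116 and 9 SW480 libraries by group; points are libraries and the black bar is the mean ± SD of 3. HOXB9 in unsorted HCT116 lies at 22.2 to 54.7 CPM, below both sorted groups, while in SW480 its groups overlap.

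The response of HOXB9 to sorting and hairpin differed between the lines. The change from unsorted to KRT-negative cells was 3.64 log2 units larger in HCT116 than in SW480 (SE 0.53, adjusted p = 0.000534), and that to KRT-positive cells was 3.0 log2 units larger (SE 0.52, adjusted p = 0.00421). HOXB9 was the only HOX gene called of 33 tested in either difference, where 1.03% and 1.08% of all genes were called. These tests use 1 estimate of the spread for both lines, whose replicates are not equally close. For HOXB8 the HCT116 and SW480 changes to KRT-negative cells, 1.80 and -1.79, had opposite signs, but their difference did not pass the test (adjusted p = 0.124).

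The contrast of keratin-positive with keratin-negative hairpin cells was also compared between Caco2 and each other line, although the sort is named KRT20 only in Caco2. Of 30 HOX genes tested, 2 differed between Caco2 and HCT116, where 2.37% of all genes did. These were HOXC4 and HOXC6, toward the low-numbered end of cluster C, by -4.18 (SE 1.07, adjusted p = 0.0473) and -1.78 log2 units (SE 0.41, adjusted p = 0.0289). Of 33 tested, 1 differed between Caco2 and SW480, which is near the share of all genes, 2.93%. That gene was HOXA7, by -0.96 log2 units (SE 0.21, adjusted p = 0.0163). Between HCT116 and SW480 no HOX gene of 33 was called in this contrast by edgeR, where 0.0539% of all genes were. Of the 33, 1 had an unadjusted p under 0.05, a threshold for which the share of all genes is not given here. DESeq2 was not run on this contrast.

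Between the lines themselves, unsorted HCT116 cells had less of cluster B than unsorted SW480 cells. Of 33 HOX genes tested, 8 were called, all lower in HCT116 and 7 of them in cluster B, where 5.51% of all genes were called lower and 10.3% in either direction. HOXB8 averaged 4.46 CPM in HCT116 and 491 CPM in SW480, 110-fold apart (log2 difference -6.78, SE 0.88, adjusted p = 6.83e-05). HOXB9 was 8.9-fold lower in HCT116 (log2 difference -3.13, adjusted p = 9.25e-06). HOXB2 had no count in any unsorted HCT116 library and 28.2, 16.0 and 43.0 CPM in SW480 (adjusted p = 0.0117). Of 6 cluster D genes tested between these lines, 0 were called. Cluster D summed to 21.4, 0.138 and 49.9 CPM in unsorted HCT116 libraries and to 54.0, 34.2 and 38.9 CPM in those of SW480, which overlap. HOXD11 had 34.0, 18.8 and 19.0 CPM in unsorted SW480 cells and was at or below 0.159 CPM in Caco2.

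Caco2 vehicle cells differed from unsorted SW480 cells at a larger share of HOX genes than of all genes, 63.6% against 40.5%. From unsorted HCT116 cells they differed at 50% of HOX genes, near the 45.6% of all genes. Against unsorted HCT116 15 of 30 tested were called, 10 higher in Caco2, where 45.6% of all genes were called and 25.9% were higher, and against unsorted SW480 21 of 33, 17 of them lower in Caco2, where 40.5% of all genes were called and 16.8% were lower. The median log2 difference of all genes was 0.12 and 0.20 in these comparisons, so small differences here are relative to that shift. HOXC8 was 12.3-fold higher in Caco2 than in HCT116 (log2 difference 3.61, adjusted p = 0.000269; 5.06 without unsorted HCT116 replicate 1). HOXC11, at 9.23, 6.17 and 7.30 CPM in Caco2, had no count in any HCT116 library, nor had HOXA2, HOXA13 and HOXC12. HOXB5 was 34.9-fold lower in Caco2 than in HCT116 and 326-fold lower than in SW480 (adjusted p = 6.04e-05 and 2.39e-08). Its Caco2 level is near the limit of detection, and the log2 differences, -5.10 and -8.29, ran from -4.47 to -6.54 and from -7.66 to -9.75 without vehicle replicate 1 or 2. HOXB8 was 200-fold lower than in SW480 (adjusted p = 1.69e-09). Line, hairpin and vehicle differ together in these comparisons and cannot be told apart. The joint fits also use 1 estimate of the spread, although replicates were closer in Caco2 than in the other lines. Adjusted p-values of these comparisons may therefore be too small. The called genes include HOXA7 in both comparisons and HOXA4 against SW480. In Caco2 alone their counts run close to those of their antisense partners, and the part of this in the differences was not tested.

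Genes that work with or upstream of HOX genes were counted in Caco2 beside the 20.9% of all genes called with medium, 36.2% in KRT20-negative and 37.7% in KRT20-positive cells against vehicle. HOX cofactors, which bind DNA beside HOX proteins, had 8 tested members, of which 25%, 37.5% and 37.5% were called in these 3 comparisons. In both hairpin groups PBX2 was higher than with vehicle and MEIS2 lower, with MEIS2 at 14.5 CPM in KRT20-negative cells and 28.2 CPM with vehicle (log2 difference -0.96, adjusted p = 3.03e-06). With medium PBX4 was higher and PBX3 lower. Of 8 tested upstream regulators, 5 were higher and 1 lower in KRT20-negative cells and 4 higher and 1 lower in KRT20-positive cells, 75% and 62.5% of them. CDX2 rose from 469 to 676 CPM in KRT20-negative cells (log2 difference 0.53, adjusted p = 1.45e-06), and the retinoic acid receptor RARB from 1.49 to 7.44 CPM (log2 difference 2.29, adjusted p = 1.13e-05). DHRS3, which reduces retinal, went from 22.2 to 44.9 CPM (log2 difference 1.02, adjusted p = 1.71e-07). With medium only GDF11, a ligand that sets the trunk-to-tail boundary, was called, lower (log2 difference -0.49, adjusted p = 0.00309), and CDX2 did not pass the test (log2 difference 0.16, adjusted p = 0.104).

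All 27 Polycomb genes were tested, and 4 were higher and 2 lower with medium, 5 higher and 5 lower in KRT20-negative cells and 5 higher and 6 lower in KRT20-positive cells. These are 22.2%, 37% and 40.7% of the list, near the shares of all genes. The methyltransferase EZH2 fell in all 3, by log2 differences of -0.60, -0.73 and -0.84, from 137 CPM with vehicle. PHF19, its accessory protein, fell too (-0.52, -1.11 and -1.03), and CBX7, a reader of the mark, rose (0.77, 1.33 and 1.25). Of 12 Trithorax and boundary genes, which keep HOX genes active or insulated, none was called higher, and 3, 3 and 6 were lower, which is 25%, 25% and 50% of them. CTCF, the insulator protein, was lower in each of the 3. In KRT-positive cells against unsorted cells, 4 Polycomb genes were lower in HCT116 (14.8%, where 9.28% of all genes were called) and 1 in SW480 (3.7%, where 3.47% were).

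Of 16 noncoding RNAs listed for the clusters, 11 were tested in Caco2. With medium 1 was called, HOXA-AS3, which was lower. In KRT20-negative cells 1 was higher and 3 lower than with vehicle, and in KRT20-positive cells 1 was higher and 4 lower. The shares called were 9.09%, 36.4% and 45.5%, beside 20.9%, 36.2% and 37.7% of all genes. HOXA-AS3 was among the lower ones in all 3 comparisons, and HOXA-AS2 in KRT20-positive cells. Their Caco2 counts run close to those of HOXA7 and HOXA4, so these calls are not separate from the calls of those genes. HAGLR, beside HOXD3, rose from 1.48 CPM with vehicle to 3.87 CPM in KRT20-negative cells (log2 difference 1.39, adjusted p = 0.00477) and 4.63 CPM in KRT20-positive cells (log2 difference 1.66, adjusted p = 0.000919). HOTAIRM1, in cluster A, fell from 43.7 to 33.0 and 29.3 CPM (log2 differences -0.40 and -0.56, adjusted p = 0.0035 and 0.000164).

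Of 7 tested genes that mark regions of the gut, 3 were lower with medium, 3 higher and 3 lower in KRT20-negative cells, and 3 higher and 2 lower in KRT20-positive cells. These are 42.9%, 85.7% and 71.4% of the 7, beside 20.9%, 36.2% and 37.7% of all genes. Of 10 tested genes that flank the clusters, CALCOCO1, beside cluster C, was higher and CBX5, on its other side, lower in both hairpin groups, which is 20% of them in each.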

How the data were processed

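Members and gene lists were chosen with earlier results of these data known. The authors deposited 1 table of raw counts per gene symbol for each library, and the values were checked to be whole numbers. Bowtie2, edgeR and hg19 were used, per the submitters' processing notes. Versions, annotation and strand setting are not given in the sources used here. Of 25737 lines per table, 1275 repeated a symbol and were summed.

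Each line was fitted with all its groups in edgeR 4.0.16 (R 4.3.3; TMM factors, filterByExpr, robust quasi-likelihood F test). A gene was called at 5% false discovery rate, with p-values adjusted by Benjamini-Hochberg over all genes tested. Comparisons between lines, and differences of changes, used joint fits of 2 lines. The SE is the log2 difference divided by the square root of F. Folds are ratios of mean CPM, and log2 differences come from the fits. The fits were tested on simulated data. All HOX symbols could be named, though 1 HOX gene and some listed genes are counted but not reported by name here; other lists were counted in full, with up to 4 members named. Positions are on GRCh38 (GENCODE 29), which is not the authors' build, and no genome position entered the counts.

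Same-numbered libraries deviated together (correlation over 0.1 in every pair) in KRT20-negative against vehicle (0.123, 0.207 and 0.119) and against medium (0.146, 0.183 and 0.111). Alternatives were DESeq2 1.42.0, RLE factors, library totals, no low-count filter, 2 groups only, a replicate block, a GC class term and leaving out each library.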

Additional observations from a re-analysis of the deposited data

Results flagged for a closer look

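The following HOX values are listed because a change differed between cell lines, either by a test of the difference or, untested, because all libraries moved one way in a line and the other way in another. By the test, the change of HOXB9 from unsorted to KRT-negative cells was larger in HCT116 than in SW480 by 3.64 log2 units, and that to KRT-positive cells by 3.0. In the keratin-positive against keratin-negative contrast, Caco2 minus HCT116 gave -4.18 for HOXC4 and -1.78 for HOXC6, and Caco2 minus SW480 gave -0.96 for HOXA7. These are 2 of 30 and 1 of 33 HOX genes tested, beside 2.37% and 2.93% of all genes. The tests share 1 estimate of the spread between lines whose replicates are not equally close. In the edgeR fits of single lines, HOXC4, HOXC6 and HOXA7 were not called in that contrast.

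Values with opposite directions and no overlap of libraries in either line follow, as log2 differences. The share of all genes that meet this rule was not counted. In SW480 alone, 12% of all genes were lower in each KRT-negative library than in any unsorted one. From unsorted to KRT-negative cells HOXB5 had 1.41 in HCT116 and -1.32 in SW480, and HOXB8 had 1.80 and -1.79. From unsorted to KRT-positive cells HOXA7 had -0.50 in HCT116 and 0.96 in SW480, and HOXB7 had 1.02 and -0.42. The test of the difference did not pass for these 4 (adjusted p = 0.0587 for HOXB5, 0.124 for HOXB8, 0.146 for HOXA7 and 0.193 for HOXB7). From keratin-negative to keratin-positive cells HOXC4 had -0.33 in Caco2 and 3.86 in HCT116, HOXC6 had -0.25 and 1.55, and HOXA7 had -0.23 in Caco2 and 0.77 in SW480. In Caco2 the HOXA7 counts are nearly those of HOXA-AS3, and the part of this in the HOXA7 difference was not tested.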

How the results depend on the processing

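Of 95 calls of single HOX genes over 15 comparisons, 66 were kept under every alternative run and 0 changed direction. Calls were lost for 1 of 95 with DESeq2, 0 with RLE factors, 2 with library totals, 4 with no low-count filter, 8 of 93 with 2 groups only and 0 of 50 with the GC class. HOX genes called moved from 1 to 0 in Caco2 KRT20-positive against KRT20-negative with 2 groups only. HCT116 KRT-positive against KRT-negative gave 2 with DESeq2 and 1 with 2 groups only. SW480 KRT-negative against unsorted gave 2 (HOXB5 and HOXB8) with DESeq2, 2 groups only, the GC class or the replicate block; KRT-positive against unsorted gave 1 with no filter and 0 with 2 groups only; KRT-positive against KRT-negative gave 2 with DESeq2 and 1 (HOXB8) with the GC class or the block. The causes were not tested, and the shares of all genes called under these alternatives are not given here. Blocking by replicate number lost 10 of 95 calls. It gave 10 called for medium against vehicle, 8 and 9 for KRT20-negative and KRT20-positive cells against vehicle, 11 and 10 against medium, and 5 (HOXB4, HOXB5, HOXB6, HOXB8 and HOXB9) for HCT116 against SW480 unsorted cells; where the numbers pair the libraries, HOXA3 was gained against medium and no call was lost. Leaving out 1 library gave 6 to 9 called for medium against vehicle, 5 (without vehicle replicate 3) to 10 for KRT20-negative and 7 to 10 for KRT20-positive cells against vehicle, 9 to 11 and 7 to 9 against medium, and 0 (without KRT20-positive replicate 3, for example) to 1 between them. In HCT116 it gave 1, 2 and 0 in every case, in SW480 0 to 1, 0 to 1 and 0. Between lines it gave 7 to 8, 14 to 16 and 17 to 20. Scaled by library totals, cluster C summed to 179 CPM in Caco2 vehicle, clusters A and B to 146 and 264 with medium, A and C to 259 and 243 in HCT116 KRT-positive, C and D to 106 and 38.2 in SW480 KRT-negative, C to 212 in SW480 KRT-positive and A to 325 in SW480 unsorted cells. Detection at 0.5 or 2 CPM left the counts per group within 1.5 times. Depth limits genes below about 1 CPM, among them most of cluster D in Caco2.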
